A study of Mus musculus with 16 samples.

Results

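The prefrontal cortex of mice in which β-catenin protein was raised in 2 different ways was set against that of mice in which it was not, over all genes measured. The raised lines were APC cKO, with both copies of Apc floxed (APC fl/fl), and β-cat cOE, with 1 copy of ctnnb1 carrying a floxed exon 3 (ctnnb1 fl(ex3)/+). The other groups were Cre-negative control littermates, pooled from all lines, and APC/β-cat cKO, with both genes floxed (APC fl/fl and ctnnb1 fl/fl). Per the study, β-catenin protein was strongly reduced in APC/β-cat cKO relative to control. The other side therefore pools normal and lowered β-catenin. The comparison takes in all 16 libraries of the series, 8 on each side and 4 of each genotype, chosen by their genotype labels. The mice were 2 to 3 months old and of both sexes. The same CamKIIα-Cre-93 transgene was in all 3 mutant lines, and per the study it acts mainly in forebrain excitatory neurons during the first postnatal weeks. Cre was therefore absent from the controls and present in the other 12 libraries, and Apc was deleted in 1 line on each side. RNA came from the whole tissue, where other cell types keep both genes, so fewer cells of a type and less RNA per cell cannot be told apart.

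β-catenin has a structural role, linking cadherins to the cytoskeleton at synapses, and a signalling role in the canonical Wnt pathway. In that pathway a destruction complex of APC, Axin, CK1 and GSK3β marks cytoplasmic β-catenin for degradation. When the complex is inactive, β-catenin accumulates, enters the nucleus and acts with TCF/LEF factors on target genes such as Axin2. Loss of Apc disables the complex, whereas loss of exon 3 of Ctnnb1 removes the part of β-catenin that the complex marks. Exon 3 lies at chr9:120950522-120950749 on the + strand of mm10, is 228 bases long and encodes codons 5 to 81. Its sequence is shown because it is the segment deleted in β-cat cOE, and the capitals mark codons 33, 37, 41 and 45, the serines and the threonine phosphorylated by CK1 and GSK3β.
Ctnnb1 exon 3: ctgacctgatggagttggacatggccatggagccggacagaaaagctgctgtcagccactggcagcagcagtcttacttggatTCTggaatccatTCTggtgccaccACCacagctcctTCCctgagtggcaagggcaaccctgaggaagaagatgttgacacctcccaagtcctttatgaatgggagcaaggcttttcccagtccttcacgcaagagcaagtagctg

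The targeted genes followed the labels only in part. Apc was at 7.85 to 17.1 FPKM (fragments scaled to transcript length and library size) in APC cKO and 6.80 to 12.2 FPKM in APC/β-cat cKO, below all 8 libraries with intact Apc (38.8 to 50.1 FPKM). Since each side holds 1 Apc-deleted line, the raised and other libraries spanned nearly the same Apc range, and the log2 difference between the sides was 0.10 ± 0.14 (SE; limma adjusted p = 0.878). Ctnnb1 was at 155 to 182 FPKM in the raised lines and 151 to 166 FPKM in the other groups. Its log2 difference was 0.07 ± 0.03 (adjusted p = 0.566), and the gene value does not show which exons a transcript holds. Depth is unknown, as no fragment counts come with the values. The number of genes at 0 per library was 5726 to 6217 in the raised lines and 5883 to 6649 in the others. Markers of olfactory bulb neurons summed to between 11.6 and 217 FPKM and differed widely within every genotype, with the highest values in APC cKO replicate 1 and β-cat cOE replicate 1. The excitatory neuron markers of the cortex were abundant in every library, with Slc17a7 (VGLUT1) at 395 to 532 FPKM in the raised lines and 420 to 515 FPKM in the others.

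Few genes separated the raised lines from the other groups across the transcriptome. Of 13978 genes tested with limma on log2(FPKM + 0.1), 8 changed at an adjusted p under 0.05 (0.0572% of the genes tested), 7 higher (0.0501%) and 1 lower (0.00715%). At an unadjusted p of 0.001 or less, the threshold of the study, there were 51 genes (0.365%), 20 higher (0.143%) and 31 lower (0.222%), and the largest adjusted p among them was 0.265. The differences of these 51 genes were small, with a median size of 0.33 on the log2 scale and only 5 genes over 1. The 4 genotypes each kept their own mean in this test. When the 8 libraries of each side were instead treated as 1 group, 0 genes passed limma's test at the adjusted p, 29 reached the unadjusted p of 0.001 and 1110 an unadjusted p under 0.05, against 1236 (8.84%) with genotype means. Without the library of each genotype that held most olfactory bulb marker RNA, 3 of the 8 calls were made and 19 genes reached the unadjusted p of 0.001.

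Most of the called genes did not differ between the sides in both pairs of genotypes. The raised lines can be paired with the other groups so that Apc status is matched: APC cKO against APC/β-cat cKO, both without Apc and both with Cre, and β-cat cOE against control, both with Apc, of which only the first carries Cre. Wwox, an oxidoreductase and tumour suppressor on chromosome 8, shows this most plainly. It was at 33.6, 32.1, 31.2 and 35 FPKM in APC/β-cat cKO, against 10.3 to 11.7 FPKM in control, 8.82 to 11.1 FPKM in APC cKO and 9.10 to 10.4 FPKM in β-cat cOE. Only the APC/β-cat cKO libraries stood apart. Wwox was lower in the raised lines by a log2 difference of -0.94 ± 0.05 (adjusted p = 1.59e-07), made up of -1.71 in the Apc-deleted pair and -0.18 in the Apc-intact pair.

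2010315B03Rik, a protein-coding gene on chromosome 9, was at 2.74, 2.26, 2.85 and 2.35 FPKM in APC/β-cat cKO and at 6.03 to 7.87 FPKM in the other 12 libraries. Again the APC/β-cat cKO libraries alone stood apart. It rose by 0.72 ± 0.07 on the log2 scale in the raised lines (adjusted p = 0.000262), with 1.38 in the Apc-deleted pair and 0.07 in the Apc-intact pair. Fam131b, whose product has no settled function, was the reverse case, since the control libraries stood apart. It was at 63.2, 64.1, 67.2 and 66.7 FPKM in control and 98.7 to 120 FPKM in all libraries with Cre. Fam131b rose by 0.36 ± 0.04 (adjusted p = 0.000262), with 0.77 in the Apc-intact pair and -0.04 in the Apc-deleted pair. It overlaps the oppositely oriented Clcn1, and whether strand was used in counting is not given in the sources used here. 3000002C10Rik, annotated as a transcribed pseudogene, was at 1.48 to 2.95 FPKM in the raised lines, 1.53 to 1.63 FPKM in control and 0.601 to 1.31 FPKM in APC/β-cat cKO. The raised and control libraries overlapped, and the rise of 0.84 ± 0.14 (adjusted p = 0.0241) came to 1.44 in the Apc-deleted pair and 0.24 in the Apc-intact pair. A processed pseudogene can share reads with its parent gene, so its level is uncertain, and its call was made in 13 of 28 other settings. The call was lost when any of 9 libraries was left out, namely APC cKO replicate 5, β-cat cOE replicates 1, 2 and 4, each control library and APC/β-cat cKO replicate 4.

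Mns1 and Bmpr1b were the called genes in which every raised library lay above every other library. Mns1 encodes a protein of the cilium and flagellum axoneme. It was at 2.45, 2.81, 5.52 and 1.99 FPKM in APC cKO and 2.1, 1.2, 1.76 and 3.36 FPKM in β-cat cOE. It was at 1.17, 0.614, 0.904 and 1.05 FPKM in control and 0.650, 0.982, 0.535 and 0.446 FPKM in APC/β-cat cKO. The lowest raised library, at 1.2 FPKM, was just above the highest of the others, at 1.17 FPKM. Mns1 rose by 1.55 ± 0.23 on the log2 scale (adjusted p = 0.0120), with 2.07 ± 0.33 in the Apc-deleted pair and 1.03 ± 0.33 in the Apc-intact pair. The ependymal and choroid plexus markers summed to 6.20 to 43.8 FPKM in the raised lines and 6.56 to 26.4 FPKM in the others. In each of the 4 genotypes the library with the highest sum of these markers also had the highest Mns1, with sums of 43.8 FPKM in APC cKO replicate 4, 28.9 FPKM in β-cat cOE replicate 4, 11.4 FPKM in control replicate 1 and 26.4 FPKM in APC/β-cat cKO replicate 2. Mns1 was at 5.52, 3.36, 1.17 and 0.982 FPKM in these libraries. APC cKO replicate 2, with the lowest sum of all 16 libraries (6.20 FPKM), had Mns1 at 2.81 FPKM. The part of these cells in the result was not tested. Mns1 also overlaps Tex9 on the opposite strand, and Tex9 differed by 0.34 on the log2 scale (adjusted p = 0.341).

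Bmpr1b encodes a type I receptor for bone morphogenetic proteins, which signals through SMAD factors. It was at 7.33, 7.54, 8.32 and 8.43 FPKM in APC cKO and 6.51, 6.90, 6.47 and 7.47 FPKM in β-cat cOE. It was at 5.82, 5.82, 5.95 and 4.98 FPKM in control and 5.38, 4.90, 6.14 and 5.06 FPKM in APC/β-cat cKO. The groups did not overlap, and APC cKO was the higher of the raised lines in its mean, 7.90 ± 0.552 FPKM (SD, n = 4) against 6.84 ± 0.463 FPKM (SD, n = 4). Bmpr1b rose by 0.41 ± 0.06 (adjusted p = 0.0115), with 0.55 ± 0.09 in the Apc-deleted pair and 0.27 ± 0.09 in the Apc-intact pair. Neither Mns1 nor Bmpr1b was called without the 4 libraries richest in olfactory bulb markers (adjusted p = 0.127 for both), although their log2 differences were then 1.67 and 0.43. Bmpr1b was also not called with the replicate number as a block (adjusted p = 0.132).

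**Figure D1:**
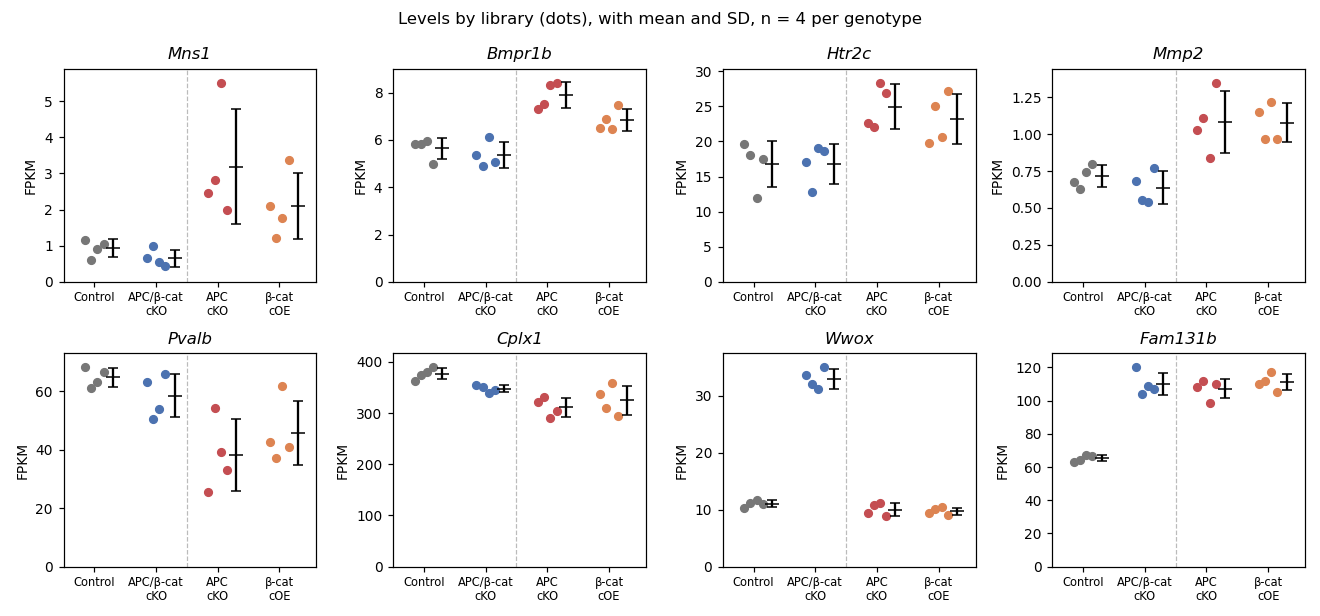
FPKM of 8 genes (vertical axes, starting at 0) in each of the 16 libraries, as dots by genotype, with the mean and SD of 4 libraries in black; the dashed line divides the other groups, on the left, from the raised lines, on the right. Mns1, Bmpr1b, Htr2c and Mmp2 are higher in every raised library, whereas Wwox is set apart by APC/β-cat cKO alone (31.2 to 35 FPKM) and Fam131b by control alone (63.2 to 67.2 FPKM).

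In all, 4 genes had 8 raised libraries above the 8 others (0.0286% of genes tested), and 0 genes had all of them below. Besides Mns1 and Bmpr1b these were Htr2c and Mmp2, which did not pass the adjusted test and were singled out after their values were seen. Htr2c, the serotonin 2C receptor, was at 22.6, 22, 28.4 and 26.9 FPKM in APC cKO, 19.8, 25, 20.6 and 27.2 FPKM in β-cat cOE, 19.7, 18.0, 12 and 17.5 FPKM in control and 17.1, 12.8, 19.0 and 18.6 FPKM in APC/β-cat cKO. Its log2 difference of 0.52 ± 0.11 (adjusted p = 0.175) was similar in size in the Apc-deleted pair, at 0.57, and the Apc-intact pair, at 0.47. Mmp2, a matrix metalloproteinase that cleaves type IV collagen, was at 0.842 to 1.35 FPKM in the raised lines and 0.540 to 0.801 FPKM in the others, a log2 difference of 0.60 ± 0.12 (adjusted p = 0.126). Its differences in the pairs were 0.68 and 0.53.

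The sequences before the start sites of Mns1 and Bmpr1b are shown, since both genes rose and TCF/LEF factors bind a CTTTG core. They are the 250 bases upstream of the RefSeq start in GRCm38.p6, at chr9:72438279-72438528 on the + strand and chr3:141982265-141982514 on the - strand, with CTTTG or its reverse complement CAAAG in capitals. Both stretches lie inside the GENCODE genes, at chr9:72438011-72462025 and chr3:141837136-142169425, so these RefSeq starts are not the outermost starts annotated.
Mns1: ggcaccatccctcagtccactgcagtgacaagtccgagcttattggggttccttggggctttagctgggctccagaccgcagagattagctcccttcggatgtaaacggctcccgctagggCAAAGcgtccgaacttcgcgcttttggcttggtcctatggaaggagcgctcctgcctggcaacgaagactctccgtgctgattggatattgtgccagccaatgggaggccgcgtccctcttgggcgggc
Bmpr1b: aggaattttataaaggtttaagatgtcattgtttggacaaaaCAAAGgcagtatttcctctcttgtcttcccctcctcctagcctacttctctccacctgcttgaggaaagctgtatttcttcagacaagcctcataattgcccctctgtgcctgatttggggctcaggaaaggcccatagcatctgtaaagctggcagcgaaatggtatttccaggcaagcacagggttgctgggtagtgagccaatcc
Each holds 1 such core. The same stretches of Htr2c, which also rose, and of Pvalb were looked at too, are not shown, and hold 0. The core is common: of 27025 genes with promoters of this length, 52.2% held it on either strand in at least 1 promoter. Of the 9892 matched genes tested, 46.8% did. Among matched genes at an unadjusted p of 0.001 or less, it was in 8 of 14 that were higher (57.1%) and 12 of 22 that were lower (54.5%). The longer CTTTGAT, counted in the same way, was in 3.72% of all these genes, 2.65% of the matched genes tested and none of those at an unadjusted p of 0.001 or less.

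The differences in the pairs of genotypes were at most weakly correlated across genes. The log2 differences of APC cKO against APC/β-cat cKO and of β-cat cOE against control, which share no library, had a Pearson r of 0.04 and a Spearman rho of 0.03 over the 13978 genes, and the sign was shared by 50.6% of genes. For the crossed pairs, APC cKO against control and β-cat cOE against APC/β-cat cKO, the Pearson r was -0.07 and the Spearman rho -0.13. These correlations are across genes, which are not independent replicates. At an adjusted p under 0.05, 30 genes (0.215%) differed in the Apc-deleted pair and 2 (0.0143%) in the Apc-intact pair, Fam131b and Casp2. At an unadjusted p under 0.05 the counts were 1437 (10.3%) and 708 (5.07%), with 105 genes in both, which is 7.31% of the first and 14.8% of the second, and 68 of these moved the same way. Of the 51 genes at an unadjusted p of 0.001 or less, 44 (86.3%) had the same sign in all 4 raised-against-other pairs of genotypes, against 31.4% of all genes tested. Since the selection uses the same libraries, that share is only described here. A further count took genes at an unadjusted p under 0.05 with the same sign in all 4 pairs. It gave 28 genes (0.200%), among them Bmpr1b, Htr2c, Mmp2, Mns1, Naaa, Cryab, St8sia5, Rtn4r and Vill.

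**Figure D2:**
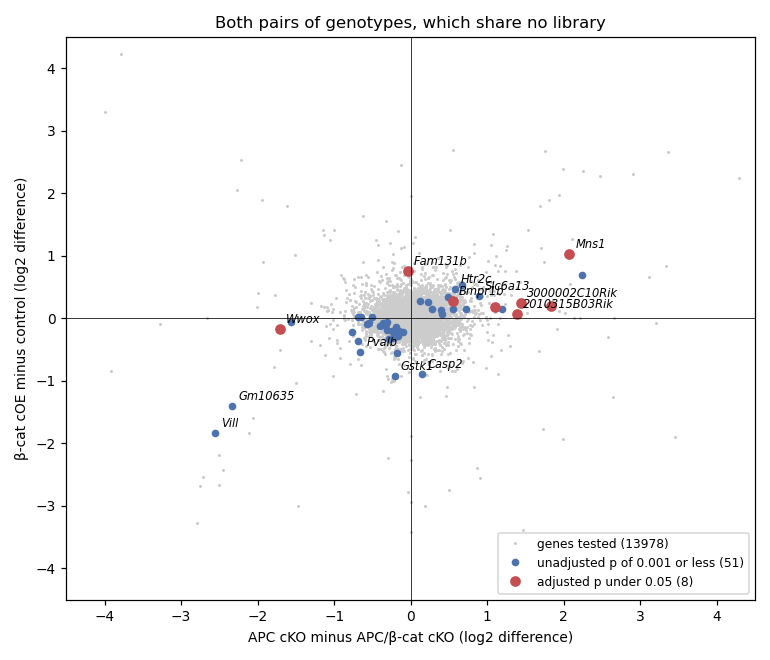
Each point is 1 of 13978 genes, placed by its log2 difference in the Apc-deleted pair (horizontal axis) and in the Apc-intact pair (vertical axis), with 9 genes beyond the plotted range. Genes called between the sides (red) lie along 1 axis or the other, apart from Mns1, at 2.07 and 1.03, and Bmpr1b, at 0.55 and 0.27.

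The difference between both pairs was tested directly. It passed the adjusted test in 7 genes (0.0501%), among them Wwox (-1.54 ± 0.11, adjusted p = 3.32e-06), 2010315B03Rik (1.32 ± 0.15, adjusted p = 0.000541) and Fam131b (-0.80 ± 0.08, adjusted p = 0.000102). Fut10, a fucosyltransferase, was at 0.563 to 0.898 FPKM in APC cKO, 2.16 to 2.57 FPKM in β-cat cOE, 0.800 to 1.86 FPKM in control and 2.34 to 3.61 FPKM in APC/β-cat cKO. APC cKO lay below APC/β-cat cKO and β-cat cOE above control, so the pairs differed in opposite directions (-1.93 and 0.91, difference -2.84 ± 0.30, adjusted p = 0.000338). Tti2, a partner of PIKK-family kinases, went the same way (difference -0.70 ± 0.12, adjusted p = 0.0460), and it lies next to Fut10, within 111.4 kb on chromosome 8. Casp2, a caspase, was at 3.36 to 3.84 FPKM in control and 1.5 to 2.20 FPKM in the other 12 libraries, and its difference between the pairs was 1.03 ± 0.17 (adjusted p = 0.0460).

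More genes separated the raised lines from APC/β-cat cKO than from control. In these comparisons, which share the raised libraries, 33 genes (0.236%) passed against APC/β-cat cKO and 3 (0.0215%) against control. The 3 were Casp2, Fam131b and Zyx, and Zyx was singled out after its values were seen. Zyx, an actin-binding protein of focal adhesions, was at 13.0 to 15.5 FPKM in control and 18.0 to 24.3 FPKM in the libraries with Cre. Of the 8 genes called between the sides, 7 passed against APC/β-cat cKO and 1 against control. Of the 51 genes, 47 had an unadjusted p under 0.05 against APC/β-cat cKO (13% of all genes tested) and 38 against control (7.48%), with 34 in both. The 8 and the 51 genes were chosen by the mean of both differences in the same libraries. High shares follow from that choice, so these counts are only described. The crossed pairs of genotypes gave 6 genes (0.0429%) for APC cKO against control and 32 (0.229%) for β-cat cOE against APC/β-cat cKO, at the adjusted p.

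Several of these genes lie close to each other or to Ctnnb1 in mm10. Gstk1, Casp2, Fam131b and Zyx lie within 114.3 kb on chromosome 6, from 42245935 to 42360213, and in all 4 genes the control libraries did not overlap those of the raised lines. These 4 were named for differences in the same libraries, so this is only described. The share of all genes without such overlap was not counted, and other genes of the stretch are not described here. Ctnnb1 itself lies on chromosome 9, and of the 47 genes at an unadjusted p of 0.001 or less that had a position, 10 were on that chromosome (21.3%, against 5.92% of genes tested) and 7 lay within 15 Mb of Ctnnb1 (14.9%, against 1.54%). Of the 8 genes called, 5 were on chromosome 9 and 4 within 15 Mb. The window was not planned beforehand, so these shares are only described. The 7 include the adjacent 3000002C10Rik and Nme6, within 15.2 kb, so they are not all separate places. Vill, a member of the villin family 1.88 Mb from Ctnnb1, was singled out after its values were seen, as the largest difference among the 51. It was at 0.835, 0.0455, 0.189 and 0.285 FPKM in APC cKO, 0.184, 0.0390, 1.03 and 0.131 FPKM in β-cat cOE, 0.755 to 1.30 FPKM in control and 1.66 to 2.24 FPKM in APC/β-cat cKO. A raised library of each line overlapped the control range, and the log2 difference was -2.20 ± 0.40 (adjusted p = 0.0726). Acaa1a, a peroxisomal thiolase 1.60 Mb from Ctnnb1, had a difference of -0.49 ± 0.12 (adjusted p = 0.240). Nme6, a nucleoside diphosphate kinase, begins beside 3000002C10Rik and, like it, was lowest in APC/β-cat cKO, at 1.12 to 1.97 FPKM against 2.17 to 4.66 FPKM elsewhere.

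Among the other genes with the smallest p that were higher in the raised lines, none passed the adjusted test. Naaa, a lysosomal amidase that degrades palmitoylethanolamide, was at 18.2 to 25.6 FPKM in the raised lines (median 21.1) and 13.6 to 19.1 FPKM in the others (median 16), and differed by 0.41 ± 0.08 (adjusted p = 0.117). A few libraries overlapped, and both pairs contributed, with 0.49 and 0.34. Pdk4, which inhibits pyruvate dehydrogenase, was at 4.39 to 5.43 FPKM against 3.08 to 5 FPKM, a difference of 0.35 ± 0.08 (adjusted p = 0.175). Fbln1, an extracellular matrix protein, was at 2.33 to 4 FPKM against 1.82 to 2.60 FPKM and differed by 0.44 ± 0.09 (adjusted p = 0.144). Gnl3l, a nucleolar GTPase, and Gabra2, the α2 subunit of GABA-A receptors, were both set apart by low APC/β-cat cKO libraries. Gabra2 was at 45.8 to 56.9 FPKM there, against 58.2 to 73.5 FPKM in control and 62.1 to 74.7 FPKM in the raised lines, and its difference was 0.26 ± 0.06 (adjusted p = 0.175).

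The genes with the smallest p among those lower in the raised lines included Pvalb, parvalbumin, the calcium-binding protein of fast-spiking interneurons. It was at 25.6, 54.4, 39.4 and 33.2 FPKM in APC cKO, 42.7, 37.1, 61.7 and 41.1 FPKM in β-cat cOE, 68.2, 61.2, 63.1 and 66.6 FPKM in control and 63.2, 50.7, 54.1 and 66.1 FPKM in APC/β-cat cKO. In each raised line 3 of 4 libraries lay below all 8 others. The log2 difference was -0.60 ± 0.13 (adjusted p = 0.178), with -0.66 and -0.53 in the pairs. Cplx1, complexin 1, which regulates synaptic vesicle fusion, was at 290 to 358 FPKM in the raised lines and 340 to 389 FPKM in the others, and differed by -0.19 ± 0.04 (adjusted p = 0.175). Cryab, a small heat shock protein of oligodendrocytes and astrocytes, was at 34.7 to 44.1 FPKM against 42.0 to 54.9 FPKM and differed by -0.30 ± 0.07 (adjusted p = 0.175), with -0.28 and -0.32 in the pairs. Smaller differences of the same sign were seen for Cox6b1, a subunit of cytochrome c oxidase (-0.17 ± 0.03, adjusted p = 0.120), and St8sia5, a sialyltransferase (-0.27 ± 0.06, adjusted p = 0.175). Gstk1, a mitochondrial glutathione transferase, was at 4.39 to 8.04 FPKM in the raised lines, 5.33 to 8.35 FPKM in APC/β-cat cKO and 9.54 to 11.4 FPKM in control. Its difference of -0.57 ± 0.12 (adjusted p = 0.175) came to -0.92 in the Apc-intact pair and -0.21 in the Apc-deleted pair. Gm10635, a long noncoding RNA, was at 0.0159 to 1.15 FPKM against 0.957 to 2.73 FPKM (-1.87 ± 0.35, adjusted p = 0.0971). Kctd2, a potassium channel tetramerization domain protein, was set apart by high APC/β-cat cKO libraries, at 41.8 to 47.3 FPKM against 34.1 to 41.7 FPKM elsewhere. Ly6a, a GPI-anchored surface protein, was low in APC cKO alone (13.9 to 18.1 against 20.4 to 29.6 FPKM) and Agpat4, an acyltransferase, in β-cat cOE alone (21.9 to 24.9 against 26.8 to 31.2 FPKM). Slfn2, of the Schlafen family, was at 0.602 to 1.24 FPKM against 1.17 to 1.85 FPKM (-0.52 ± 0.11, adjusted p = 0.175).

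No member of any of the Wnt pathway lists passed the adjusted test, so members are counted at an unadjusted p under 0.05, beside the 3.68% of all genes that were higher and 5.16% that were lower at that threshold. Values in brackets are log2 differences between the sides, and "higher" and "lower" below refer to members at that threshold. The median log2 difference of all genes was -0.0033, so about as many genes lay above 0 as below it. Members of a list are not independent replicates, so counts of members with the same sign are only described. Of 12 ligands tested, 2 were higher, Wnt16 (0.69) and Wnt6 (0.62), and 1 was lower, Wnt4 (-0.29), with a median of -0.03. Of 15 receptors, Fzd7 alone was higher (0.24), and the median was 0.08. Of 7 secreted antagonists, 3 were higher and 1 lower, with a median of 0.36. Wif1, which binds and sequesters Wnt ligands, was at 0.450 to 7.12 FPKM in the raised lines (median 2) and 0.460 to 1.10 FPKM in the others (median 0.796). It overlapped at the low end, and its difference of 1.32 ± 0.34 (adjusted p = 0.306) came to 2.08 in the Apc-deleted pair and 0.56 in the Apc-intact pair. Notum, a Wnt deacylase that is itself a target of the pathway, differed by 0.74 and Sfrp1, a secreted frizzled-related protein, by 0.39. Sfrp1 rose in the Apc-deleted pair, by 1 on the log2 scale (adjusted p = 0.0396), and had a difference of -0.22 in the Apc-intact pair. Dkk3, the most abundant of them at 121 to 181 FPKM in the raised lines and 143 to 180 FPKM in the others, was lower (-0.17). Its difference came to -0.04 in the Apc-deleted pair and -0.31 in the Apc-intact pair.

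Inside the cell, none of 17 members of the destruction complex and dishevelled list had an unadjusted p under 0.05 (median 0.02), and of 17 TCF/LEF factors and coregulators Pygo1 alone did (0.19). Of 18 feedback and target genes tested, 4 were higher and none lower, with a median of 0.08. Axin2, the feedback scaffold of the destruction complex, was at 8.40, 6.03, 7.65 and 6.61 FPKM in APC cKO, 5.33, 5.75, 5.91 and 6.63 FPKM in β-cat cOE, 6.26, 4.75, 5.81 and 6.01 FPKM in control and 5.02, 5.25, 5.70 and 4.52 FPKM in APC/β-cat cKO. The highest levels were in APC cKO, but both raised lines overlapped control and each other. The log2 difference between the sides was 0.26 ± 0.08 (adjusted p = 0.382), with 0.47 ± 0.11 in the Apc-deleted pair and 0.05 ± 0.11 in the Apc-intact pair, and the difference between the pairs did not pass (0.42 ± 0.16, adjusted p = 0.616). Nkd1, another feedback inhibitor, was at 1.80 to 4.19 FPKM against 1.86 to 2.82 FPKM (0.14 ± 0.14). Without the 4 libraries richest in olfactory bulb markers, 2 target genes had an unadjusted p under 0.05. Of 21 genes of cadherin and catenin adhesion, the classical function of β-catenin at the membrane, Cdh10 (0.16) and Cdh24 (0.23) were higher and none was lower.

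Of the lists for neuronal signalling, those of glutamate and GABA receptors stayed near the median of all genes. Of 37 glutamate receptors and scaffolds, none had an unadjusted p under 0.05 in either direction, and the median difference was 0.01. Of 20 genes of GABA receptors and inhibitory synapses, Gabra2 was higher and Gabrd, the extrasynaptic δ subunit, was lower (-0.19). Of 50 axon guidance genes, 6 were higher, led by Nrp2, a semaphorin receptor (0.31), and 3 were lower, led by Sema7a (-0.27). Of 23 Notch pathway genes, Dll1 and Dner were higher, and Notch4 (-0.42) and Numbl were lower. None of 19 immediate early genes had an unadjusted p under 0.05, though 16 had a difference above 0. Their median was 0.12, with 0.23 in the Apc-deleted pair and 0.0093 in the Apc-intact pair. The sum of these genes was 358 to 550 FPKM in APC cKO, above every control library (270 to 327 FPKM). Those of β-cat cOE (187 to 469 FPKM) and APC/β-cat cKO (265 to 444 FPKM) overlapped both. Of 13 complement genes, 2 were higher, with C4b the larger in difference (0.54), and Itgam (-0.26) was lower.

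**Figure D3:**
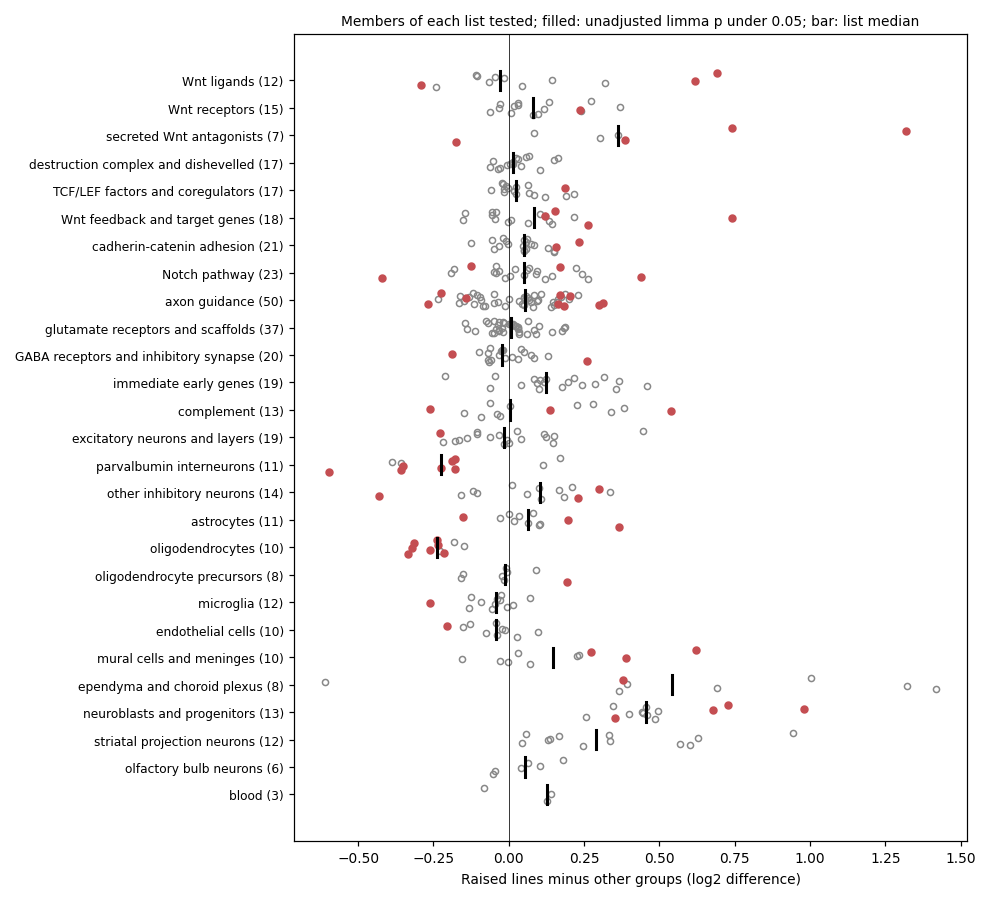
Log2 difference of the raised lines from the other groups (horizontal axis) for each gene of 27 lists, with the number tested in brackets. Filled points have an unadjusted limma p under 0.05 and black bars are list medians, which are lowest for oligodendrocytes (-0.24) and parvalbumin interneurons (-0.22) and highest for ependyma and choroid plexus (0.54) and neuroblasts and progenitors (0.46).

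Markers of parvalbumin interneurons had medians below 0 in both pairs. Of 11 genes tested, 7 were lower and 0 higher at an unadjusted p under 0.05, with a median of -0.22 and medians of -0.19 and -0.26 in the pairs. Besides Pvalb and Cplx1, these were Kcnc1 and Kcnc2, the fast potassium channels of these cells (-0.18 and -0.22), Kcns3 (-0.35), the synaptotagmin Syt2 (-0.36) and Btbd11 (-0.18). Tac1 and Erbb4 had differences above 0, of 0.11 and 0.17. The summed level of the 11 genes was 422 to 533 FPKM in the raised lines and 492 to 617 FPKM in the others. Every raised library was below every control library (551 to 617 FPKM), while APC/β-cat cKO (492 to 574 FPKM) overlapped the raised lines. Most of this sum was Cplx1, at a mean of 340 FPKM. Cplx1 alone did not overlap control either (290 to 358 against 363 to 389 FPKM), so the sum says little of the other members. The number of members lower at an unadjusted p under 0.05 was 4 to 8 over 29 other settings, with 4 when APC cKO replicate 1, β-cat cOE replicate 1, APC/β-cat cKO replicate 1 or APC/β-cat cKO replicate 3 was left out and with males alone, and 5 without the libraries richest in olfactory bulb markers. Other inhibitory neuron markers were mixed, with Sst, somatostatin, lower (-0.43) and Gad2 and Htr3a higher (0.23 and 0.30).

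Oligodendrocyte markers were lower between the sides, and none passed the test of the difference between the pairs. All 10 genes tested had a difference below 0 and 7 had an unadjusted p under 0.05, with a median of -0.24, made up of -0.50 in the Apc-deleted pair and -0.0013 in the Apc-intact pair. Mbp, myelin basic protein, was at 223 to 354 FPKM in the raised lines and 281 to 427 FPKM in the others (-0.33 ± 0.08, adjusted p = 0.265), with -0.58 and -0.09 in the pairs, which did not differ from each other at the adjusted p (0.553). Mobp (-0.32), Mag (-0.26), Cldn11 (-0.24), Ermn (-0.32) and Mal (-0.24), all of the myelin sheath or its membrane, were lower too. The markers summed to 719 to 854 FPKM in APC cKO, below every APC/β-cat cKO library (1036 to 1178 FPKM), and β-cat cOE (815 to 1061 FPKM) overlapped control (805 to 1215 FPKM). Of the precursor markers, Pdgfra was higher (0.19) and the other 7 had no unadjusted p under 0.05.

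Markers of cells that border the cortex, or lie outside it, were mixed. All 13 neuroblast and progenitor genes had a difference above 0, with a median of 0.46, and 4 had an unadjusted p under 0.05: Top2a, a marker of dividing cells (0.73), Igfbpl1 (0.98), Cd24a (0.68) and Sox11 (0.35). That count was 1 in 9 of the 29 other settings, 6 of them with APC cKO replicate 1, β-cat cOE replicate 1 or 4, control replicate 2, or APC/β-cat cKO replicate 1 or 3 left out. It was 2 without APC cKO replicate 5 or control replicate 1, 7 without β-cat cOE replicate 3, and 9 without APC cKO replicate 2 or APC/β-cat cKO replicate 2. Their summed level was 39 to 139 FPKM in the raised lines and 32 to 85.9 FPKM in the others, and the highest library, APC cKO replicate 1, also had the most olfactory bulb marker RNA. Of 8 ependymal and choroid plexus genes, Kl alone had an unadjusted p under 0.05 (0.38), and 7 had a difference above 0. All 12 striatal genes also had a difference above 0, none with an unadjusted p under 0.05, and their sum of 141 to 691 FPKM in the raised lines overlapped that of 134 to 501 FPKM in the others. Of 6 olfactory bulb genes none had an unadjusted p under 0.05, 4 had a difference above 0 and 2 below, and their median of 0.05 came to -0.29 in the Apc-deleted pair and 0.39 in the Apc-intact pair. Their summed level had a median of 41 FPKM in the raised lines and 50.6 FPKM in the others. Of 10 mural and meningeal genes 3 were higher, led by the GABA transporter Slc6a13 (0.62), with Col1a1 (0.39) and Igf2 (0.27). Slc6a13 was at 6.13 to 9.85 FPKM against 3.52 to 7.09 FPKM. The part of uneven dissection in these lists was not tested.

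Excitatory neuron and layer markers, the cells in which Cre acts, stayed near the median of all genes. Of 19 tested, Lamp5 alone, listed under its older symbol 6330527O06Rik, had an unadjusted p under 0.05 (-0.23). Slc17a7 and Slc17a6, the vesicular glutamate transporters, differed by -0.02 and 0.15. Astrocyte genes were mixed, with Gja1, connexin 43, and Gfap higher (0.20 and 0.37) and S100b lower (-0.15). Of 12 microglial genes Itgam alone was lower, and of 10 endothelial genes Ly6c1 alone (-0.21).

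**Figure D4:**
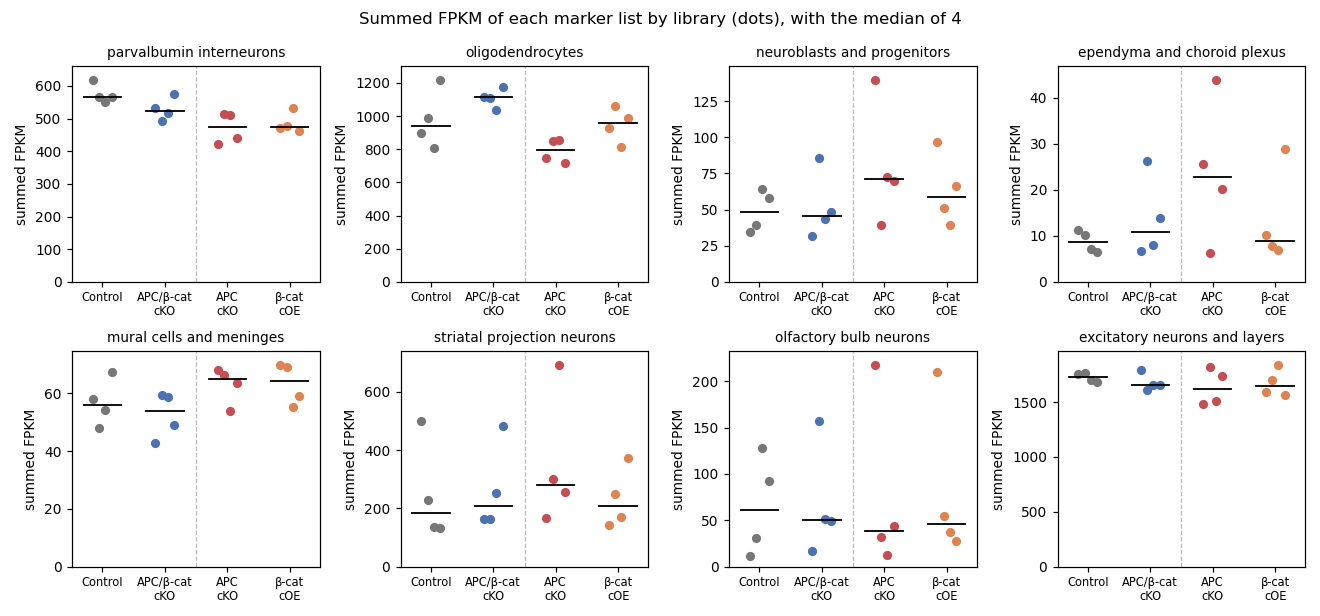
Summed FPKM of 8 marker lists (vertical axes, starting at 0) in each library, as dots by genotype, with the median of 4 libraries as a line; the dashed line divides the other groups, on the left, from the raised lines. Parvalbumin markers, whose sum is mostly Cplx1, sit at 422 to 533 FPKM in the raised lines against 492 to 617 FPKM in the others. Oligodendrocyte markers are lower in APC cKO (719 to 854 FPKM) than in APC/β-cat cKO (1036 to 1178 FPKM). All 8 lists overlap between the sides.

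No leading axis of variation followed the sides. The first 5 principal components of all genes tested held 13.9%, 12.2%, 10.7%, 8.85% and 7.02% of the variance. Mean scores of the raised lines and the other groups differed by -8.07, -3.03, -12.8, 0.49 and 7.93, and the exact two-sided permutation p-values over 12870 splits were 0.323, 0.697, 0.0618, 0.945 and 0.170. The smallest p this design allows is 0.000155, and the values adjusted over the 5 components were 0.538, 0.871, 0.309, 0.945 and 0.425. Single libraries moved these gaps. Without β-cat cOE replicate 1 the gap on the third component was -2.06, and without APC cKO replicate 1 that on the first was -1.32, while those on components 2, 4 and 5 changed sign in at least 1 such fit. Ciliary genes such as Tmem212, Ccdc153 and Foxj1 led 1 end of the first component. Olfactory bulb genes such as Omp, Eomes and Th led 1 end of the second and striatal genes such as Drd2 and Adora2a the other.

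**Figure D5:**
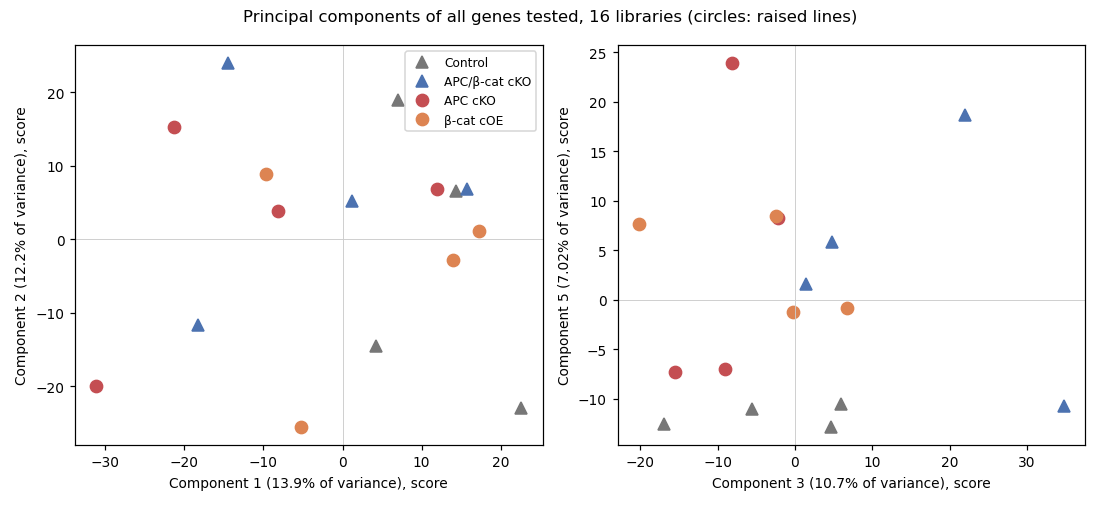
Scores of the 16 libraries on principal components 1 and 2 (left) and 3 and 5 (right) of all genes tested, with circles for the raised lines and triangles for the other groups. Circles and triangles mix on every axis, and the widest gap between their means, on component 3 (-12.8), had an exact permutation p of 0.0618 and shrank to -2.06 without β-cat cOE replicate 1.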

How the data were processed

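RNA from 16 prefrontal cortex samples was prepared with a stranded mRNA kit, and each library was assigned to its genotype by its sample label. Per the submitters' processing notes and the methods of the study, the authors made the values with bcl2fastq, TopHat2 2.0.10 and Cuffdiff 2.1.1 (mm10). The values the authors deposited are log2 values, taken here as log2(FPKM + 1) and turned back into FPKM. Base and offset were inferred and are not given in the sources used here. Confidence and status columns are empty. The table lists 23284 genes, of which 3841 had no signal in any library, and 25 symbols turned into dates. Depth is unknown.

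The members and gene lists were chosen with earlier results of these data known. limma 3.58.1 in R 4.3.3 (lmFit, contrasts.fit, eBayes with a trend) was run on log2(FPKM + 0.1) for the 13978 genes whose mean reached 0.5 FPKM, with 4 genotype means, 12 residual degrees of freedom and Benjamini-Hochberg adjustment, and a gene was called at an adjusted p under 0.05. This scale understates changes of low genes. Unadjusted p-values are from the same fit. Component scores were compared with exact permutation tests. The labels call the libraries of a genotype separate samples and say no more, so the p-values measure the spread between these samples, which may in part be technical. On simulated data for the raised lines against the others (13978 genes) the test called 99% of 100 genes changed by 2 and 91% of 100 changed by 1 on the log2 scale, and 11 of 13778 unchanged ones.

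Genes named are Apc and Ctnnb1, every gene called between the sides or in the difference between the pairs, the 12 higher and 12 lower genes with the smallest p among those at an unadjusted p of 0.001 or less and a mean of at least 1 FPKM, the member of each list with the lowest p each way, and the first members of each list, and others were singled out after their values were seen. The values of 2 called genes and of a few list members are not reported here. Of 448 list members, 8 were found under an older symbol and 3 were not matched. Positions are from GENCODE (mm10) and promoters from RefSeq. Sex was read from Xist and Y-linked genes, giving 14 male libraries and 2 female ones, 1 of APC cKO and 1 of control. Alternatives were pseudocount, filter, scaling, no trend, sex, replicate number as a block, 2 groups of 8 and each library left out. A block by column-header numbers, males alone, small RNA genes left out and the 12 libraries with less olfactory bulb RNA were added after seeing the data. Plots were drawn with matplotlib 3.10.9, and tables with pandas 2.3.3 and numpy 2.4.6 in Python 3.11.15.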

Additional observations from a re-analysis of the deposited data

Results flagged for a closer look

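In 6 of the genes reported here, the difference between the raised lines and the other groups itself differed between the Apc-deleted and the Apc-intact pair, by limma's test of that difference. The log2 difference of the Apc-deleted pair exceeded that of the Apc-intact pair by 1.32 in 2010315B03Rik and 1.03 in Casp2. It was below it, by -0.80 in Fam131b, -2.84 in Fut10, -0.70 in Tti2 and -1.54 in Wwox.

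Of 116 groups of 4 libraries, over 29 genes, 4 held 1 library whose gap to its nearest neighbour took up more of the group's range than Dixon's 95% limit allows. Chance alone passes that limit in about 1 in 20 groups, or 5.8 here. The ratio of gap to range was 0.842 for 2010315B03Rik in β-cat cOE (replicate 3 low), 0.866 for Bmpr1b in control (replicate 4 low), 0.900 for Naaa in β-cat cOE (replicate 3 low) and 0.907 for St8sia5 in APC/β-cat cKO (replicate 4 low).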

How the results depend on the processing

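Over 29 alternatives, 797 values of single genes kept their direction and their side of the threshold, 23 no longer passed, 14 newly passed and Apc reversed to -0.0001959 with males alone. Wwox, 2010315B03Rik and Fam131b were called in 28 of 29, all but the 2 groups of 8. With 2 groups of 8, limma called 0 genes, 29 reached an unadjusted p of 0.001 and 1110 one under 0.05. Changes in counts of called genes are given next, and their cause was not tested. A pseudocount of 1 gave 5 against control. A mean of at least 2 FPKM gave 3 for the difference between the pairs, 21 for the raised lines against APC/β-cat cKO and 2 genes without overlap. Without a trend the Apc-deleted pair had 16. With sex it had 14, the Apc-intact pair 1 and the difference 4. The label numbers did not pair the libraries across all genotypes. Deviations of same-numbered libraries correlated at -0.218 to 0.322 (median -0.07, 4 of 21 pairs over 0.1), and 5 of 15 libraries correlated best with their own number. Between APC cKO and β-cat cOE, both on the raised side, every same-numbered pair was over 0.1 (0.322, 0.197 and 0.111), but no pair of groups on opposite sides met this. APC cKO replicate 5 has no same-numbered partner, but the column-header numbers place it with β-cat cOE replicate 3, at 0.143. By those numbers 6 of 16 libraries correlated best with a library of their own set. The main test treats the libraries as independent, so its standard errors leave out such a correlation inside the raised side. With the replicate block, 9 genes were called between the sides, without Bmpr1b and 3000002C10Rik, 28 genes reached an unadjusted p of 0.001, and the calls were 4 for the difference, 15 for the Apc-deleted pair, 1 for the Apc-intact pair, 3 for APC cKO against control, 12 for β-cat cOE against APC/β-cat cKO, 15 for the raised lines against APC/β-cat cKO and 1 against control. A block by column-header numbers gave 4 for the difference, 1 for the Apc-intact pair and 18 for β-cat cOE against APC/β-cat cKO. Males alone gave 17 for the Apc-deleted pair, 26 for APC cKO against control, 50 for β-cat cOE against APC/β-cat cKO, 10 for the raised lines against control and 17 without overlap. The 12 libraries with less olfactory bulb RNA gave 3 between the sides, 19 at an unadjusted p of 0.001, 4 for the difference, 9 for the Apc-deleted pair, 2 for APC cKO against control, 9 for β-cat cOE against APC/β-cat cKO, 8 for the raised lines against APC/β-cat cKO and 26 without overlap.

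With each library left out, the calls between the sides ranged from 7 to 13 (13 without APC cKO replicate 2) and genes at an unadjusted p of 0.001 from 34 (without β-cat cOE replicate 4) to 84 (without APC cKO replicate 2). Calls ranged from 4 to 8 for the difference between the pairs, 10 to 32 for the Apc-deleted pair, 1 to 3 for the Apc-intact pair, 3 to 43 for APC cKO against control and 9 to 54 for β-cat cOE against APC/β-cat cKO (43 and 54 without control replicate 1). They ranged from 10 to 41 for the raised lines against APC/β-cat cKO and 2 to 8 against control, and 4 to 23 genes did not overlap (23 without β-cat cOE replicate 3). No principal component passed in any of these. The unknown depth limits what can be said of genes near 0.5 FPKM.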
